A study of Mus musculus with 6 samples.

Results

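Homologous recombination, the Fanconi anemia pathway and the DNA damage checkpoint were followed through 42 genes, listed by name for their place in this pathway, with earlier results of these data known. All 42 were found once each by gene name among the 58735 genes of the deposited count table, and all 42 had enough counts to be tested. The libraries came from 22Rv1, an established human prostate cancer cell line, and poly(A) RNA was sequenced. The parental group (n = 3) had been kept in vehicle, and the resistant group (n = 3) was the 22Rv1 BL-B01D1_R subline, grown out of the same cells in rising concentrations of BL-B01D1. BL-B01D1 is a bispecific antibody against EGFR and HER3 that carries Ed-04, a camptothecin-derived inhibitor of topoisomerase I. Each group was 1 line from 1 culture history, the sources do not say that the libraries of a line were separate cultures, and they do not say whether drug was present when the RNA was taken. The p-values therefore measure the spread between these libraries, which may be technical, and drift between the lines cannot be told apart from resistance. The sample labels give mouse as the organism, whereas the gene identifiers are human.

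As background, topoisomerase I inhibitors trap the enzyme on nicked DNA, and a replication fork that runs into the trapped complex can leave a broken DNA end. Homologous recombination repairs such ends from the sister chromatid: the end is trimmed to a single strand, BRCA2 and its partners prepare that strand to invade the intact copy, and helicases and nucleases take the joined molecules apart. The Fanconi anemia proteins act at stalled and crosslinked forks by placing ubiquitin on FANCD2 and FANCI, and the kinases ATM and ATR pass the damage signal to CHEK2 and CHEK1, which hold the cell cycle. Many of these genes are transcribed mainly in S and G2 phase.

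Counts on genes totaled between 13821639 and 17251491 per library. Levels are given as CPM, counts scaled to 1000000 per library after TMM scaling. The 9 prostate epithelial markers summed to 3245 to 3313 CPM in parental and 3303 to 3344 CPM in resistant libraries. By edgeR at an FDR of less than 0.05, 4 of the 9 were higher and 4 lower in resistant cells. The shares of all tested genes were 17.1% and 18.4%. Among the 9, HOXB13 was at 439 CPM in parental and 315 CPM in resistant cells. KLK3, the gene of prostate-specific antigen, stood at 2.67 and 4.96 CPM. Of 8 markers of immune, endothelial, stromal and muscle cells, 5 had at most 3 counts in every library, and COL1A1 was the highest of the others, at 14.2 CPM in parental and 11.7 CPM in resistant cells. Counts on mitochondrial genes took 4.19% to 4.21% of the parental and 5.10% to 5.35% of the resistant libraries.

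In resistant cells, 18 of the 42 genes were lower and 1 was higher at an FDR of less than 0.05, and the differences were small. Calls came from the quasi-likelihood test of edgeR, adjusted over all 17142 genes tested, of which 35.5% were called in either direction. The genes that fell spanned the pathway, from BRCA1 and its partner BARD1 through BRCA2, XRCC2 and RAD54L to FANCI, BRIP1, CHEK1, CHEK2, ATM and MDC1. NBN, the damage sensor of the MRE11 complex, was the gene that rose. The background shares were 18.4% of all tested genes called lower and 17.1% called higher, against 42.9% and 2.38% of the 42 genes. Among the 10485 tested genes whose mean CPM lay between that of the lowest and of the highest of the 42, 21.8% were called lower and 20.1% higher. The median log2 fold change was −0.13 for the 42 genes and 0.0038 for all tested genes, and 33 of the 42 values were below 0.

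No gene of the 42 reached the study's threshold of an FDR of less than 0.05 with an absolute log2 fold change greater than 1, which 5.37% of all tested genes passed. By edgeR the count past that fold was 0 also at an unadjusted p under 0.05, and it was 0 with limma-voom and with DESeq2. The fitted log2 fold changes ran from −0.43 for BARD1 to 0.22 for NBN. At an unadjusted p under 0.05, 22 of the 42 genes differed. The resistant libraries lay entirely below the parental ones in CPM for 23 of the 42 genes and entirely above for 2 (NBN and FANCG), while 22.8% and 22.1% of all tested genes were separated in this way. The summed level of the 42 genes was 2816 to 2875 CPM in the parental libraries and 2568 to 2579 CPM in the resistant libraries. These are bulk RNA values, in which fewer cells that express a gene and less RNA per cell cannot be told apart.

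**Figure D1:**
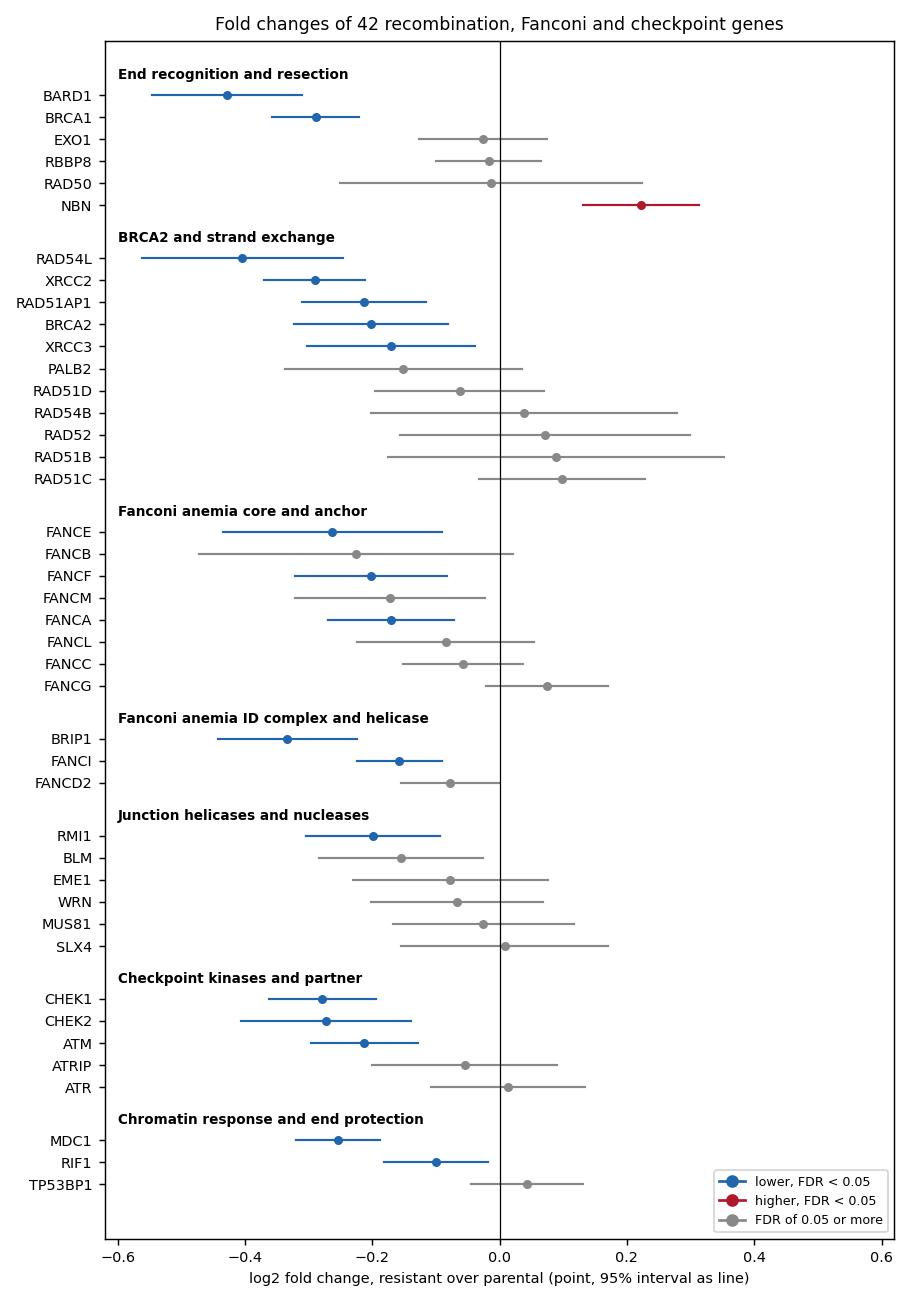
Log2 fold change of each of the 42 genes in resistant over parental cells (x axis), grouped by role (y axis), with the 95% interval of the edgeR fit as a line and the call by color. The 18 genes called lower lie between −0.43 and −0.10, NBN at 0.22 is called higher, and the gray intervals of the genes not called are widest for those with few counts.

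Standard errors of the log2 fold changes ran from 0.033 for MDC1 to 0.13 for RAD51B, the genes of the 42 with the most and the fewest counts (a mean of 4599 and 127 per library). Of the 17 genes with a mean of at least 1000 counts, 10 were called lower and 1 higher, and their standard errors were at most 0.052. Of the 25 genes under that depth, 8 were called, all lower, with standard errors of 0.054 to 0.13. Over all tested genes, 18.4% were called lower and 17.1% higher, and these shares were not split by depth. The median log2 fold change was also closer to 0 in these 25 genes, at −0.085 against −0.16 in the 17, and the parts of depth and of a smaller change in the number of calls were not tested.

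Levels between genes were compared per length, as FPKM (fragments per kilobase per 1000000 counts, from the authors' gene lengths). Each gene had 1 length, such as 23972 bases for ATM, whatever transcripts were in use. The order of FPKM therefore need not be that of transcript numbers. In parental cells MDC1 stood highest at 39.1 ± 2.01 FPKM (SD, n = 3), followed by FANCI at 30.6 ± 1.04 and RAD51AP1 at 29.8 ± 0.916, and the latter values differed by less than their spread. XRCC2 at 24.1 FPKM and BRCA1 at 21.4 FPKM came next, and BRCA2 stood at 4.44 ± 0.36 FPKM, ATM at 4.84 ± 0.24 and ATR at 3.76 ± 0.071. RAD50 (1.17 ± 0.13 FPKM) and RAD51B (1.04 ± 0.041 FPKM) were the lowest. In resistant cells the same genes stood at the ends of the order, with MDC1 at 32.8 ± 0.78 FPKM and RAD51B at 1.11 ± 0.092 FPKM.

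**Figure D2:**
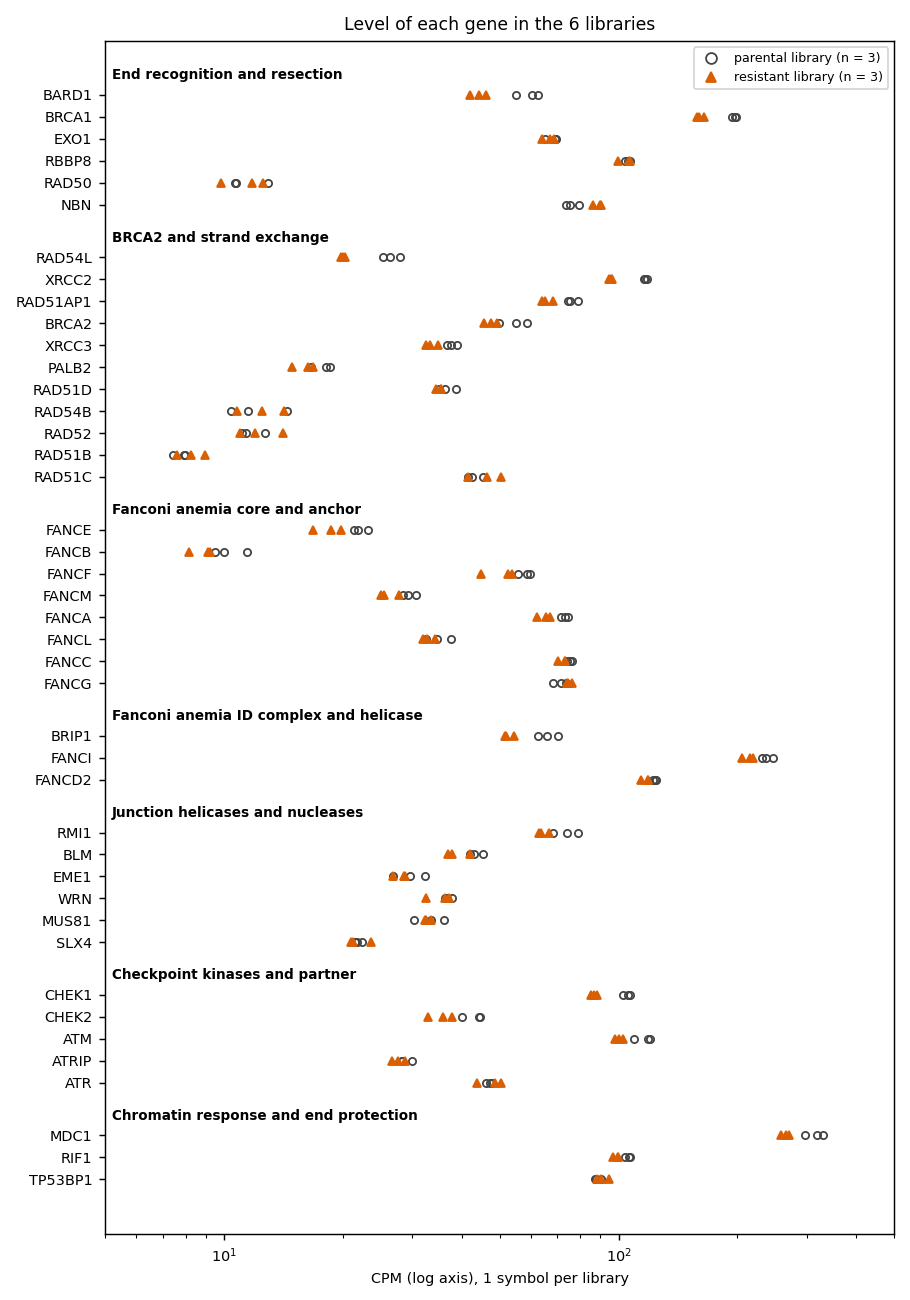
CPM of each of the 42 genes (x axis, log scale) in the 3 parental libraries (open circles) and the 3 resistant libraries (triangles), grouped by role (y axis). Circles and triangles stand apart for BRCA1, BARD1, XRCC2, RAD54L, BRIP1, CHEK1 and MDC1, and overlap for genes such as ATR, RBBP8 and SLX4.

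Among the genes that recognize and trim broken ends, BARD1 and BRCA1 fell and NBN rose, while RBBP8, RAD50 and EXO1 were not called. BRCA1 (ENSG00000012048; chromosome 17, 43044295 to 43170245, reverse strand, in hg38 as all positions here) encodes the E3 ligase that steers ends toward resection. Its level was 197, 199 and 193 CPM in the parental libraries and 158, 160.0 and 165 CPM in the resistant libraries. The groups did not overlap, and each value rested on 2353 to 3396 counts. Its log2 fold change of −0.29 had an SE of 0.034 and, by edgeR, an FDR of 3.08e-09, so that the level fell by 18.1%.

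BARD1 (ENSG00000138376; chromosome 2, 214725646 to 214809711, reverse strand), the obligate partner of BRCA1, stood at 62.4, 60.4 and 55.1 CPM in parental cells and at 46.1, 41.9 and 44.2 CPM in resistant cells. All resistant libraries were below all parental ones. Its log2 fold change of −0.43 (SE 0.058, FDR 1.00e-07 by edgeR) was the lowest of the 42, a level that fell by 25.7%.

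NBN (ENSG00000104320; chromosome 8, 89933336 to 90003228, reverse strand) recruits ATM to broken ends. It stood at 79.2, 73.5 and 75.1 CPM in parental cells and 90.1, 89.7 and 86.2 CPM in resistant cells, without overlap. The log2 fold change was 0.22 (SE 0.045, FDR 1.22e-04 in edgeR's test). The span of NBN overlaps that of DECR1 on the opposite strand, which had 78.5% as many counts as NBN and a log2 fold change of 0.64. Counting is not stated to use strand, so reads of the shared stretch cannot be told apart, and their part in the rise of NBN was not tested. RAD50, the ATPase of the same complex, had a log2 fold change of −0.013 with a 95% interval of −0.25 to 0.22. MRE11, its nuclease, belongs to the wider list described further on and fell, with a log2 fold change of −0.35 (FDR 1.35e-04 in edgeR's test). RBBP8 (CtIP), which starts resection, and the exonuclease EXO1, which extends it, had values of −0.017 (interval −0.10 to 0.066) and −0.027 (−0.13 to 0.074).

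Of the 11 genes around BRCA2 and strand exchange, 5 fell (45.5%, beside 18.4% of all tested genes) and 6 were not called. RAD54L (ENSG00000085999; chromosome 1, 46247688 to 46278473, forward strand), the motor protein that drives strand invasion, had 25.3, 28.0 and 26.3 CPM in parental and 20.1, 20.3 and 19.8 CPM in resistant cells. The groups did not overlap, and the log2 fold change was −0.40 (SE 0.078, FDR 5.56e-05 by edgeR). LRRC41, which overlaps RAD54L on the opposite strand, had 376% of its counts and moved the other way, with a log2 fold change of 0.37.

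XRCC2 (ENSG00000196584; chromosome 7, 152644779 to 152676165, reverse strand), which acts in strand exchange, stood at 116, 118 and 117 CPM in parental cells and 96.3, 95.9 and 94.7 CPM in resistant cells. The means, 117 ± 0.98 and 95.6 ± 0.853 CPM (SD, n = 3), differed by far more than the spread within either group. Its log2 fold change was −0.29 (SE 0.040, FDR 9.27e-08 by edgeR). RAD51B, RAD51C and RAD51D sit with XRCC2 or, for RAD51C, with XRCC3 in small complexes. XRCC3 also fell (log2 fold change −0.17, FDR 0.0369 by edgeR), whereas RAD51B, RAD51C and RAD51D were not called, at 0.089, 0.098 and −0.063. The call of XRCC3 was lost with DESeq2 (adjusted p = 0.0963), without a filter, and in 4 of the 6 fits that left out a library (without parental replicate 2 or 3, or without resistant replicate 1 or 2), with FDR up to 0.144 against 0.0369 in the full fit.

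RAD51AP1 (ENSG00000111247; chromosome 12, 4538798 to 4560048, forward strand), which stimulates strand invasion, had 74.5, 75.4 and 79.0 CPM in parental and 64.0, 68.3 and 65.0 CPM in resistant cells, a log2 fold change of −0.21 (SE 0.048, FDR 4.53e-04 by edgeR). BRCA2 (ENSG00000139618; chromosome 13, 32315474 to 32400266, forward strand), the central mediator of strand exchange, had 58.6, 55.1 and 49.7 CPM in parental and 45.7, 49.2 and 47.6 CPM in resistant cells. The lowest parental library of BRCA2 stood barely above the highest resistant one. Its log2 fold change was −0.20 (SE 0.060, FDR 0.00664 by edgeR). The call was lost without parental replicate 1 (−0.15, FDR 0.0705) and without resistant replicate 1 (−0.17, FDR 0.0527). PALB2, which bridges BRCA1 and BRCA2, had a log2 fold change of −0.15 with an interval of −0.34 to 0.035 and was not called. RAD52 and RAD54B, with 0.071 and 0.038, were not called either.

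Of the 8 genes of the Fanconi anemia core complex and its anchor, 3 fell, FANCE, FANCF and FANCA, and 5 were not called. The share that fell was 37.5%, beside 18.4% of all tested genes. FANCE (ENSG00000112039; chromosome 6, 35452356 to 35467103, forward strand), which ties the core complex to FANCD2, had 21.9, 21.4 and 23.2 CPM in parental cells and 16.8, 19.9 and 18.7 CPM in resistant cells, without overlap. The log2 fold change was −0.26 (SE 0.085, FDR 0.0131 by edgeR). Leaving out parental replicate 3 or resistant replicate 1 ended this call (FDR 0.0574 and 0.113). FANCF and FANCA, both of the core complex, had log2 fold changes of −0.20 and −0.17, and each call was lost without resistant replicate 2 (FDR 0.118 and 0.0512). FANCB (−0.23), FANCM (−0.17), the ubiquitin ligase FANCL (−0.085), FANCC (−0.058) and FANCG (0.075) were not called. FANCM, the DNA translocase that anchors the complex, had an FDR of 0.0655, and its resistant libraries were all below the parental ones.

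FANCI and FANCD2 form the dimer that the core complex ubiquitinates, and the fall in mRNA was called for FANCI but not for FANCD2. FANCI fell from 238 ± 8.06 to 213 ± 6.74 CPM (SD, n = 3), a log2 fold change of −0.16 (FDR 1.89e-04 by edgeR). FANCD2 (ENSG00000144554; chromosome 3, 10026414 to 10101930, forward strand) had 124, 124 and 122 CPM in parental and 118, 119 and 114 CPM in resistant cells. The groups did not overlap, yet the log2 fold change of −0.078 (95% interval −0.16 to −0.0011) had an FDR of 0.110 by edgeR. Whether the changes of FANCI and FANCD2 differ was not tested.

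BRIP1 (FANCJ; ENSG00000136492; chromosome 17, 61681266 to 61863521, reverse strand), a helicase that binds BRCA1, fell. It had 70.2, 65.9 and 62.5 CPM in parental cells and 51.6, 54.5 and 51.8 CPM in resistant cells. No libraries overlapped, and the log2 fold change was −0.33 (SE 0.054, FDR 2.77e-06 by edgeR).

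Of the 6 helicases, nucleases and scaffolds that take apart joint molecules, 1 fell and 5 were not called. The share that fell was 16.7%, near the 18.4% of all tested genes. RMI1, a scaffold of the BLM complex, fell from 73.8 ± 5.48 to 64.4 ± 1.84 CPM (SD, n = 3; log2 fold change −0.20, FDR 0.00213 by edgeR). BLM, the helicase of that complex, had a log2 fold change of −0.16 (interval −0.28 to −0.027) and an FDR of 0.0529 by edgeR. It passed in 4 of 15 alternative fits, among them limma-voom (FDR 0.0499) and the fit without TMM scaling (FDR 0.0325). The others that passed were those without parental replicate 1 or resistant replicate 3 (FDR 0.0407 and 0.0184). In the remaining 11 it was not called, as with DESeq2 (adjusted p = 0.127), and FDR reached 0.218 without resistant replicate 2. WRN (−0.067), a related helicase, the nuclease subunits EME1 (−0.077) and MUS81 (−0.026), and the scaffold SLX4 (0.0079, interval −0.15 to 0.17) were not called.

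Among the checkpoint genes, both effector kinases and ATM fell, and ATR and its partner ATRIP were not called. The share that fell was 60% of only 5 genes, beside 18.4% of all tested genes. CHEK1 (ENSG00000149554; chromosome 11, 125625136 to 125676255, forward strand), the effector of ATR, had 106, 103 and 107 CPM in parental cells and 85.1, 88.3 and 86.5 CPM in resistant cells. The groups did not overlap, and the log2 fold change was −0.28 (SE 0.042, FDR 6.65e-07 by edgeR). The span of CHEK1 meets that of STT3A, a gene on the same strand with 310% of its counts and a log2 fold change of −0.35, and what shared reads contribute was not tested. CHEK2 (ENSG00000183765; chromosome 22, 28687743 to 28742422, reverse strand), the effector of ATM, had 40.1, 44.2 and 44.6 CPM in parental and 32.9, 37.8 and 35.9 CPM in resistant cells, again without overlap. Its log2 fold change was −0.27 (SE 0.066, FDR 9.90e-04 by edgeR).

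ATM (ENSG00000149311; chromosome 11, 108222484 to 108369102, forward strand) had 120.1, 119 and 109 CPM in parental cells and 103, 100.3 and 97.8 CPM in resistant cells. Every resistant library was below every parental one, and the log2 fold change was −0.21 (SE 0.042, FDR 6.75e-05 by edgeR). ATR (ENSG00000175054; chromosome 3, 142449235 to 142578826, reverse strand) had 47.7, 47.3 and 46.0 CPM in parental and 48.6, 50.3 and 43.8 CPM in resistant cells. The resistant libraries of ATR enclosed the parental ones, and its log2 fold change of 0.014 had an interval of −0.11 to 0.13, with an FDR of 0.888 by edgeR. For ATRIP the value was −0.055 (interval −0.20 to 0.091).

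Of the chromatin proteins that gather at breaks, MDC1 and RIF1 fell and TP53BP1, the gene of 53BP1, was not called. MDC1 (ENSG00000137337; chromosome 6, 30699807 to 30717889, reverse strand), the reader of phosphorylated H2AX, had 297, 319 and 329 CPM in parental cells and 257, 265 and 269.6 CPM in resistant cells. The groups did not overlap, and the log2 fold change was −0.25 (SE 0.033, FDR 2.99e-08 by edgeR). RIF1, which protects ends together with 53BP1, had a log2 fold change of −0.10 and passed narrowly (FDR 0.0495 by edgeR). Its call was lost in 14 of 15 alternative fits, with FDR up to 0.175. TP53BP1 itself was not called, at 0.043 (interval −0.045 to 0.13).

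For 16 of the 42 genes, another gene whose span overlapped theirs had more than 5% of their counts. Among these 16 were BRCA1, NBN, XRCC3, RAD54L, FANCA, FANCF, FANCI, ATM, CHEK1 and CHEK2. The others, RAD52, RAD54B, FANCL, MUS81, EME1 and TP53BP1, were not called. The largest shares were 1725% for CFL1 over MUS81 and 763% for LRRC59 over EME1. CFL1 and LRRC59 had log2 fold changes of 0.024 and −0.53. POLG, over FANCI, had 49.5% of its counts and a log2 fold change of −0.18. What shared reads contribute was not tested. The treatment of reads shared by genes is not given, so few counts on an overlapping gene do not show that few reads were shared. RAD50, RAD51D and ATRIP share their strand with overlapping coding genes that had few or no counts, and so fell outside the 16. Of the 16, 9 were lower and 1 was higher. Of the other 26, 9 were lower, and their median log2 fold change was −0.089, against −0.16 for the 16. Neither count was set against tested genes of like overlap, and the shares of all tested genes were 18.4% lower and 17.1% higher.

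The wider pathway was followed through 71 further genes, of which 68 were found under their symbol and 65 were tested. In resistant cells 25 of these 65 were lower and 7 were higher at an FDR of less than 0.05, and their median log2 fold change was −0.049. These are 38.5% and 10.8%, against 18.4% and 17.1% of all tested genes. By role, 4 of 9 genes of end recognition and resection were lower and 1 was higher (median log2 fold change −0.10), as were 4 and 2 of 14 genes of strand exchange (−0.059), 3 and 1 of 7 genes around FANCD2 and FANCI (−0.046) and 4 and 1 of 9 genes of the chromatin response (0.035). Of 7 junction nucleases and helicases 1 was lower and 1 higher (14.3% each, median 0.050), shares under those of all tested genes. Of 5 further Fanconi core genes 1 was higher (20%, median 0.053). Of the 14 checkpoint genes 9 were lower (median −0.14), including TOPBP1, the activator of ATR (log2 fold change −0.23), and the mediator CLSPN (−0.16), beside WEE1 (−0.12) and CDC25A (−0.24), which act on the cyclin-dependent kinases from opposite sides.

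MAD2L2 (REV7), a subunit of the shieldin complex that protects ends, had the largest change among those called, from 83.0 ± 5.28 to 56.0 ± 0.465 CPM (SD, n = 3; log2 fold change −0.57, FDR 2.89e-12 by edgeR). DNA2, a resection nuclease, and MND1, a partner in strand exchange known from meiosis, fell with values of −0.39 and −0.30. The genes that rose included EME2, a MUS81 partner (0.36), ZSWIM7 (0.33) and SWI5 (0.28), both accessory to strand exchange, and NUDT16L1, an inhibitor of 53BP1 (0.25). UBE2T, the ubiquitin-conjugating enzyme that works with FANCL, and USP1, which removes that ubiquitin, both fell, with −0.23 and −0.17.

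Genes of the cell cycle moved in the same direction as the 42, beside 18.4% of all tested genes called lower and 17.1% called higher. Of 33 S phase genes, 23 were lower and 0 were higher by edgeR at an FDR of less than 0.05 (1 was higher at an unadjusted p under 0.05, and 0 by limma-voom and by DESeq2), and their median log2 fold change was −0.17. Of 52 G2 and M phase genes, 41 were lower and 1, the tubulin gene TUBB4B, was higher, with a median of −0.23. The S phase list summed to 5781 to 6017 CPM in parental and 5282 to 5325 CPM in resistant libraries, and the G2 and M list to 10493 to 10625 and 9378 to 9412 CPM. PCNA, the replication clamp, fell from 496 ± 14.6 to 425 ± 9.46 CPM (log2 fold change −0.22, FDR 1.74e-08 by edgeR), and the proliferation marker MKI67 from 675 ± 3.84 to 575 ± 9.40 CPM (−0.23, FDR 4.98e-10 by edgeR; SD, n = 3 throughout).

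The largest decreases among called S phase genes were those of CENPU (log2 fold change −0.39), CHAF1B (−0.36) and MCM5 (−0.29), and among G2 and M phase genes those of CENPE (−0.37), CCNB2 (−0.37) and ANP32E (−0.35). Of the 42 genes, 17 had a log2 fold change below the median of the S phase list and 10 below that of the G2 and M list, and BARD1 and RAD54L were lower than every gene of both lists. The part of the cell cycle genes in the lower levels of the 42 was not tested.

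**Figure D3:**
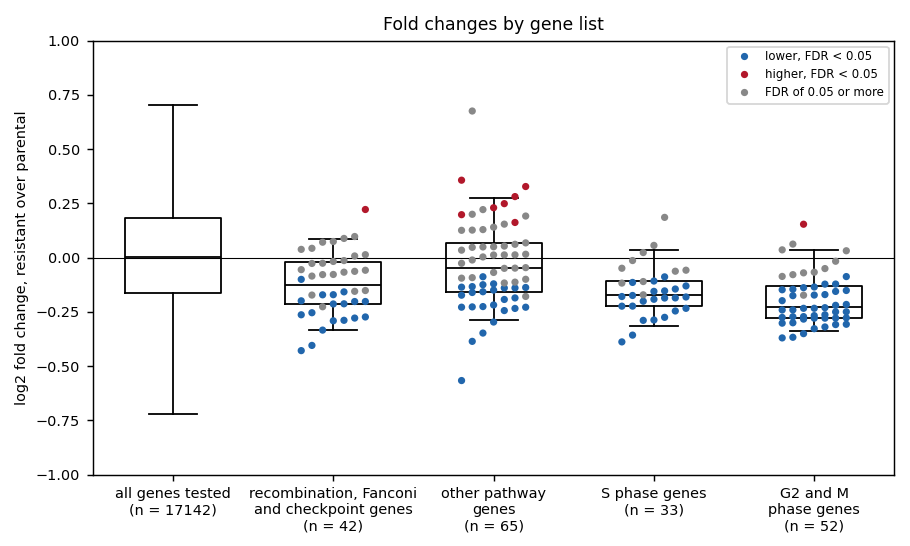
Log2 fold changes in resistant over parental cells (y axis) for all 17142 genes tested and for the 4 gene lists (x axis). Boxes span the interquartile range with the median as a line, whiskers reach the 5th and 95th percentiles, and points are genes colored by call. The medians are 0.0038 for all genes, −0.13 for the 42 genes, −0.049 for the other pathway genes, −0.17 for S phase and −0.23 for G2 and M phase genes.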

How the data were processed

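RNA-Seq libraries of 22Rv1 cells (3 parental, 3 resistant) were assigned to groups by their sample titles. Per the methods and the submitters' processing notes, the authors mapped reads to hg38 with HISAT2 (2.0.5) and deposited raw read counts per gene from featureCounts (1.5.0-p3), with gene position and length; fastp is also named. The annotation release, strand setting and treatment of reads shared by genes are not given in the sources used here. 

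From these counts, genes were filtered with filterByExpr, scaled with TMM and tested by quasi-likelihood F-tests in edgeR (4.0.16, under R 4.3.3) with Benjamini-Hochberg adjustment over 17142 genes. The square root of the common dispersion, which edgeR names the biological coefficient of variation, was 3.51%. The libraries of a line may not be separate cultures, so this spread may be technical. The standard error was the log2 fold change divided by the square root of F. At these depths 3 counts correspond to 0.174 to 0.217 CPM. Counts of replicates differed by more than sampling noise (chi-square per degree of freedom at least 1.77), so all 6 libraries were kept. Alternatives were DESeq2 (1.42.0), limma-voom (3.58.1; limma is named in the study's methods), other scalings and filters, protein-coding genes alone, the replicate number as a block, and each library left out in turn. Scripts were tested on simulated counts.

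The 42 genes, the other lists and the tests were chosen with earlier results of these data known. Values in every library are given for genes that passed the FDR and were among the 12 of the 42 with the largest absolute log2 fold change, and for BRCA1, BRCA2, ATM, ATR, CHEK1, CHEK2 and FANCD2. From the other lists, the 8 (wider pathway) or 3 (each cell cycle list) largest changes past the FDR were named, with PCNA and MKI67. TOPBP1, CLSPN, WEE1, CDC25A, UBE2T, USP1, TUBB4B, HOXB13, KLK3 and COL1A1 were named after their values were seen. No human sequence was used here. Immunoblots and viability assays were not analyzed here.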

Additional observations from a re-analysis of the deposited data

How the results depend on the processing

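Of the 630 log2 fold changes computed for the 42 genes under the alternatives (15 for each gene), 597 kept their side of the FDR threshold and the direction of any call, 26 lost a call and 7 gained one. The same call was reached in all alternatives for 33 of the 42 genes, 12 of the 18 lower ones among them. The number of lower genes, 18, was 14 to 18 when a library was left out (14 without resistant replicate 2) and reached 21 with library size alone. The median log2 fold change of the 42, −0.13, was −0.14 with library size alone, a shift of all genes to a median of −0.012, and between −0.14 and −0.10 when a library was left out. The count of S phase genes called higher, 0, was 1 among protein-coding genes only and 0 to 1 when a library was left out (1 without parental replicate 1 or resistant replicate 1), and that of G2 and M phase genes, 1, was 1 to 2 (2 without parental replicate 1). The cause of these changes was not tested.

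Both groups carry replicate numbers 1 to 3. Deviations from the group means of same-numbered libraries correlated at −0.025 to −0.0070 across genes, and no library correlated best with its own number, so the numbers were not taken as pairs. With the replicate block, 17 of the 42 genes were lower and 1 was higher, and RIF1 lost its call (FDR 0.0634).

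Adding 3 genes of the wider pathway under the older symbols that the table uses (HROB, FIRRM and H2AX, a choice made after seeing the data) left the counts at 25 lower and 7 higher.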

Other observations

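RAD50, whose level per length was among the lowest of the 42 genes, shares its strand and span with a protein-coding gene, AC116366.3, which had a mean of 4 counts. ATRIP shares them with TREX1, which was at 0 counts in all libraries, and RAD51D with RAD51L3-RFFL, at a mean of 0.667 counts.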
